A study of Triticum aestivum with 2 samples.

Results

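In the Whole Transcript (WT) assay, which labels the antisense strand, 40 wheat probe sets gave a signal above the lowest bioB spike-in control and stand in neither of the study's lists, the 110 sense-antisense transcript pairs and the 80 antisense-specific transcripts. They were selected on their WT signal out of 61115 wheat probe sets of the Affymetrix Wheat Genome Array. That control is the lowest of the 9 probe sets for bioB, a bacterial biotin gene whose transcript is added to every hybridization. Membership itself is therefore not a result. Names of 4 kinds, from clusters treated apart, were left out. Total RNA came from the hexaploid wheat 'Chinese Spring' and pooled 5 tissues: germinated seed, shoot, flag leaf, and spike before and after anthesis. The pool was hybridized once after WT target preparation for the antisense strand, and once after the standard 3' in vitro transcription (3'IVT) preparation for the sense strand. Priming also differed, with random hexamers in the WT preparation and an oligo(dT) primer in the 3'IVT preparation. The labeled target was cDNA in the former and cRNA in the latter. Strand cannot be told apart from these differences between the assays. With 1 array per assay and 1 pool, no value has an error between samples, no test was made, and a tissue cannot be told from its share in the pool.

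Natural antisense transcripts are RNAs read from the strand opposite to a gene. In nuclear genomes they often arise where neighbouring genes overlap or where a promoter fires in both directions. In the chloroplast, genes lie close together in operons that are read by a bacterial-type polymerase and by nuclear-encoded polymerases, and transcription often runs past the end of a gene into the next one, which may lie on the other strand.

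A probe set name carries what is known of these probe sets, since none of the 40 has a gene symbol in the platform annotation, which gives a symbol to 1273 of the 61290 probe sets on the array. The name gives the design cluster of related sequences (Ta.7812), a sequence number within it, the orientation letter S or A of the design sequence, and a suffix that marks probe sets shared between transcripts (_a_at, _s_at, _x_at). A putative function given below belongs to a listed probe set of the same cluster, and was not assigned to the unlisted one.

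The threshold lay at a log2 signal of 15.19 on the WT array and at 9.69 on the 3'IVT array, the lowest bioB probe set of each. Above it were 224 wheat probe sets (0.367%) on the WT array and 10561 (17.3%) on the 3'IVT array. Of the 224, 182 are listed, 106 as pairs and 76 as antisense-specific, and 42 are not, of which 2 were left out by name. Each array is scaled on its own, so a level is set only against the threshold or other probe sets of the same array. The only measure of spread was the SD between spike-in probe sets of the same control region, 0.26 log2 units on the WT array and 0.32 on the 3'IVT array (27 probe sets of 9 regions). It covers probe design as well as error and is no replicate SD.

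The 40 probe sets form a dim edge of the bright WT signals with a few exceptions. Their median log2 WT signal was 15.42, with quartiles of 15.28 and 15.70 and a range of 15.20 to 18.89. Listed pairs above the threshold had a median of 17.07 (15.33 to 19.74), and listed antisense-specific transcripts one of 16.73 (15.21 to 19.63). Within 1 spike-in SD above the threshold lay 23 of the 40, against 2 of the 106 listed pairs and 4 of the 76 antisense-specific transcripts. The study also chose its lists on a WT signal above bioB. That the unlisted probe sets gather near the threshold is therefore in part fixed by the choice, and is given as a description. The 7 that exceeded it by more than 1 log2 unit were, from the brightest down, Ta.7812.2.A1_at, TaAffx.107470.1.S1_at, TaAffx.6823.1.S1_at, Ta.27751.4.A1_x_at, TaAffx.85725.1.S1_at, TaAffx.8107.1.S1_x_at and Ta.30727.1.A1_at. Only 4 of the 40 were above the median WT signal of all listed probe sets above the threshold.

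**Figure D1:**
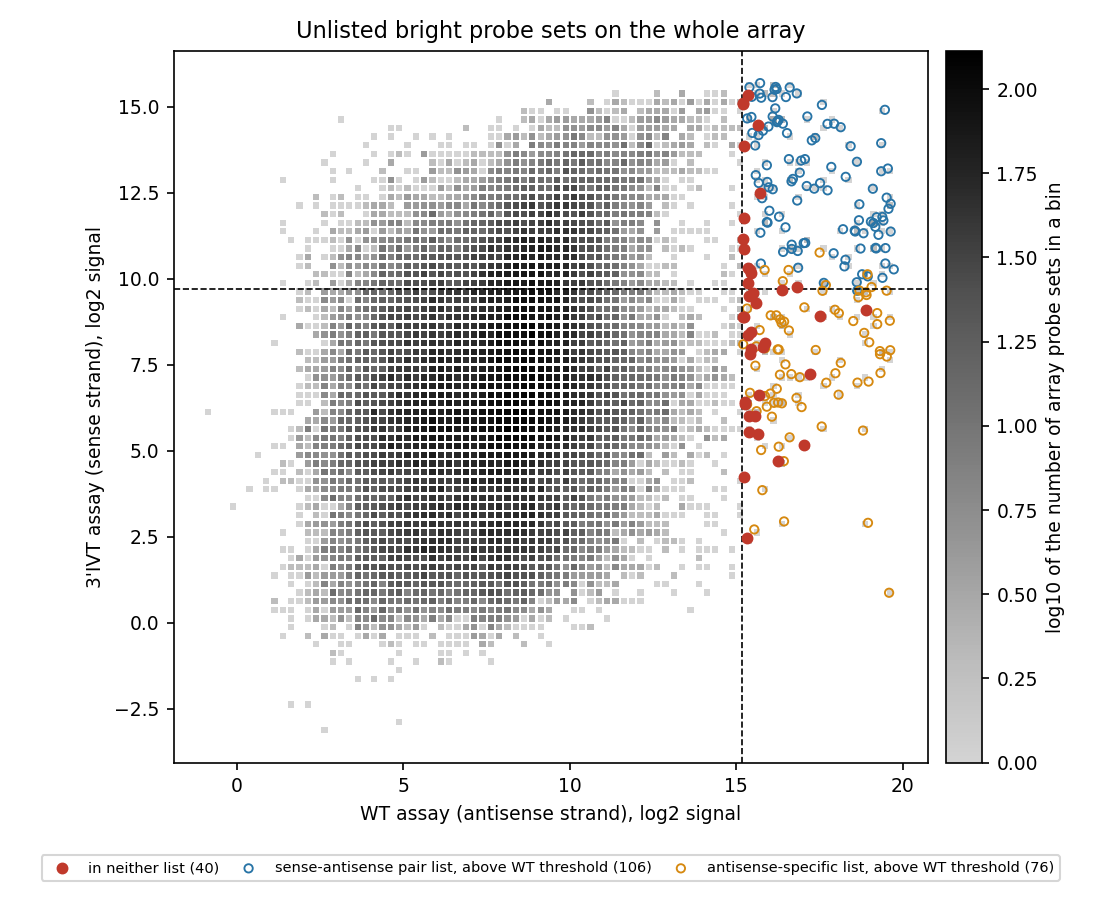
Log2 signal of the probe sets of the array in the WT assay (x axis) and the 3'IVT assay (y axis), with grey squares shaded by the log10 number of wheat probe sets in a bin and dashed lines at the lowest bioB probe set of each array (15.19 and 9.69). The 40 unlisted probe sets (red) lie mostly close to the WT threshold, whereas the listed pairs (blue) and listed antisense-specific transcripts (orange) above it extend to 19.74 and 19.63.

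On the 3'IVT array the same 40 probe sets were spread widely, from well below the array median of 6.63 to near the highest wheat probe set at 15.68. The log2 signal ran from 2.46 to 15.33, with a median of 8.90 and quartiles of 6.57 and 10.27. Above the 3'IVT threshold were 14 of the 40 (35.0%, exact 95% binomial interval 20.6 to 51.7%, counting error only) and 26 were above the WT threshold alone. The share cannot be read against the 17.3% of all probe sets, because most probe sets bright on both arrays are in the list of pairs and were removed by the choice of members. The 40 unlisted probe sets next below the WT threshold included 17 above the 3'IVT threshold (42.5%, 27.0 to 59.1%). The 2 intervals overlap widely.

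The 14 above both thresholds mostly passed by little on the WT array, 11 of them by less than the spike-in SD, and TaAffx.85725.1.S1_at by the most with 1.64. Their median excess over the threshold was 0.16 log2 units in the WT assay and 1.76 in the 3'IVT assay. These sizes cannot be set against each other between arrays. The threshold of 15.19 stands over an array median of 8.01 on the WT array, and that of 9.69 over 6.63 on the 3'IVT array. Listed pairs had median excesses of 1.88 in the WT assay and 2.98 in the 3'IVT assay. The 26 above the WT threshold alone had a median WT excess of 0.30 and a median 3'IVT excess of -1.82, against 1.55 and -1.85 for the listed antisense-specific transcripts. On the 3'IVT array 11 of the 26 were below a log2 signal of 7.02, the highest of 63 probe sets for reporter genes that wheat does not carry. Most wheat probe sets of the array were also below this reporter level, since the array median was 6.63. Only reporter probe sets below the WT threshold were used for this level, 63 of 64, so a reporter probe set can also be bright on the WT array. The Spearman correlation of the 2 signals was -0.50 across the 14 above both thresholds and -0.49 across listed pairs. It was 0.18 across the 26 above the WT threshold alone and 0.25 across listed antisense-specific transcripts. These values are given as a description, since all these probe sets were cut at 1 end of the WT scale. The 14 and the 26 were also split on the 3'IVT signal, and the lists on detection in the 3'IVT assay. The correlations therefore cannot be read as a trait of the probe sets.

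**Figure D2:**
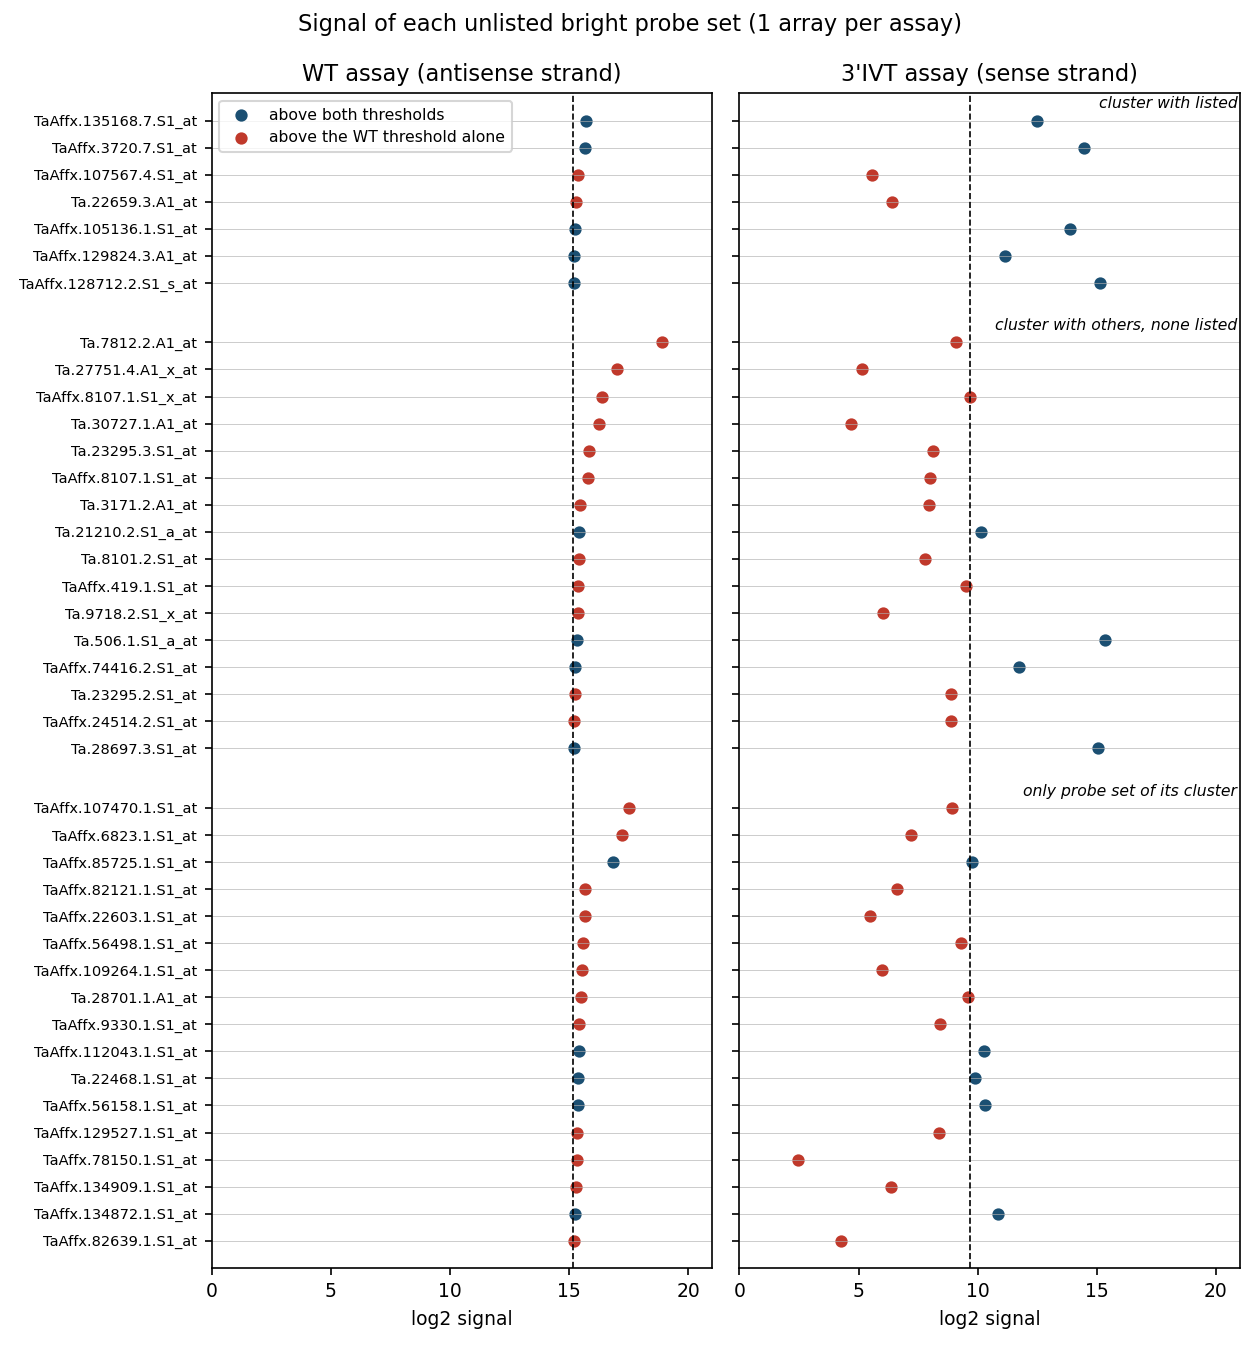
Log2 signal of each of the 40 unlisted probe sets on the WT array and the 3'IVT array, 1 array per assay, with the threshold of each array as a dashed line. WT signals stay within 15.20 to 18.89 and 33 of them lie within 1 log2 unit of the threshold, whereas 3'IVT signals run from 2.46 to 15.33.

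Of the 40, 7 share a design cluster with a listed probe set (17.5%, 7.34 to 32.8%). Over all probe sets that could have been members, called eligible here (wheat probe sets neither listed nor left out by name), this share was 0.327%. None of the 5 to 9 members left by the other bioB thresholds had such a cluster, and by design sequence in place of cluster the share of the 40 was 2.5%. It was 71 of 106 for listed pairs (67.0%, 57.2 to 75.8%), 33 of 76 for listed antisense-specific transcripts (43.4%, 32.1 to 55.3%) and 5 of the 40 next below the threshold (12.5%, 4.19 to 26.8%). Cluster names were not used in the choice of members other than for the names left out, but probe sets of a cluster can read overlapping sequence and do not vary independently. Seen from the listed clusters, 7 of their 199 unlisted probe sets were above the WT threshold (3.52%, 1.43 to 7.11%), against 33 of 60567 in other clusters (0.0545%, 0.0375 to 0.0765%).

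Of these 7 clusters, 3 hold listed probe sets for proteins that make proteins or RNA, among them ribosomal proteins of the chloroplast, 1 holds a photosystem protein, and 3 hold only unknown or hypothetical ones. TaAffx.3720.7.S1_at had log2 signals of 15.67 in the WT assay and 14.46 in the 3'IVT assay, and was the second brightest of the 7 on the WT array. Its cluster of 8 holds listed probe sets for the chloroplast ribosomal proteins S7 and S12, both of the small subunit that reads the mRNA. The S7 probe sets were like it, with 15.72 and 15.68 for TaAffx.3720.1.S1_at and 15.75 and 15.26 for TaAffx.3720.4.S1_s_at in the WT and 3'IVT assays. The S12 probe sets were much brighter on the WT array and dimmer on the 3'IVT array, with 18.79 and 10.13 for TaAffx.3720.2.S1_at and 18.74 and 10.87 for TaAffx.3720.5.S1_at. The unlisted probe set thus lay 0.05 log2 units below the first S7 probe set on the WT array, within the spike-in SD, and 1.22 below it on the 3'IVT array.

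TaAffx.129824.3.A1_at had 15.22 in the WT assay and 11.15 in the 3'IVT assay. Its cluster of 9 holds listed probe sets for ribosomal protein S11, for a translation initiation factor, which helps the ribosome onto the mRNA, and for the alpha subunit of RNA polymerase, on which the bacterial-type enzyme assembles. All 6 listed probe sets were brighter on the WT array. The alpha subunit probe set TaAffx.129824.10.S1_at was the brightest with 18.85, against 8.42 in the 3'IVT assay, and the S11 probe set TaAffx.129824.4.S1_x_at had 18.70 and 12.16. The other 2 unlisted probe sets of the cluster had 13.58 and 10.68 on the WT array and 4.06 and 6.52 on the 3'IVT array. The cluster thus spans WT signals from 10.68 to 18.85.

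TaAffx.105136.1.S1_at had 15.25 in the WT assay and 13.86 in the 3'IVT assay. The only other probe set of its cluster, TaAffx.105136.2.S1_at, is listed as the beta subunit of RNA polymerase, which holds much of the catalytic centre. It had 17.63 and 9.88, and the order of the pair is thus opposite on the 2 arrays. TaAffx.128712.2.S1_s_at had 15.21 and 15.12, the second highest 3'IVT signal of the 40. Among the 14 probe sets of its cluster, the one listed for the Z protein of photosystem II, TaAffx.128712.18.S1_s_at, had 16.15 and 15.49, and TaAffx.128712.19.S1_s_at, listed as a hypothetical protein, was the brightest on the WT array with 19.19, against 10.89 on the 3'IVT array. Another unlisted probe set of the cluster, TaAffx.128712.1.S1_at, fell just short of the WT threshold with 15.02 and had 10.44 in the 3'IVT assay. The 7 others ranged over 2.90 to 10.93 in the WT assay and 0.98 to 7.32 in the 3'IVT assay.

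The remaining 3 of the 7 share a cluster with listed probe sets of no known function. TaAffx.135168.7.S1_at had 15.72 in the WT assay and 12.47 in the 3'IVT assay, and the listed antisense-specific TaAffx.135168.3.S1_s_at 18.09 and 9.00. TaAffx.107567.4.S1_at had 15.40 and 5.55, whereas the listed pair TaAffx.107567.3.S1_at had 19.58 and 12.03. Ta.22659.3.A1_at stands beside the listed antisense-specific Ta.22659.3.A1_x_at, made from the same design sequence, and the 2 differed by 0.05 on the WT array and 0.06 on the 3'IVT array. They had 15.27 and 6.40 without the suffix, and 15.33 and 6.34 with it. It is the 1 case of 40 in which the unlisted and a listed probe set share the design sequence itself. The 2 cannot be told apart at the spike-in SD. Present calls, on which the lists also rest, were not used here.

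**Figure D3:**
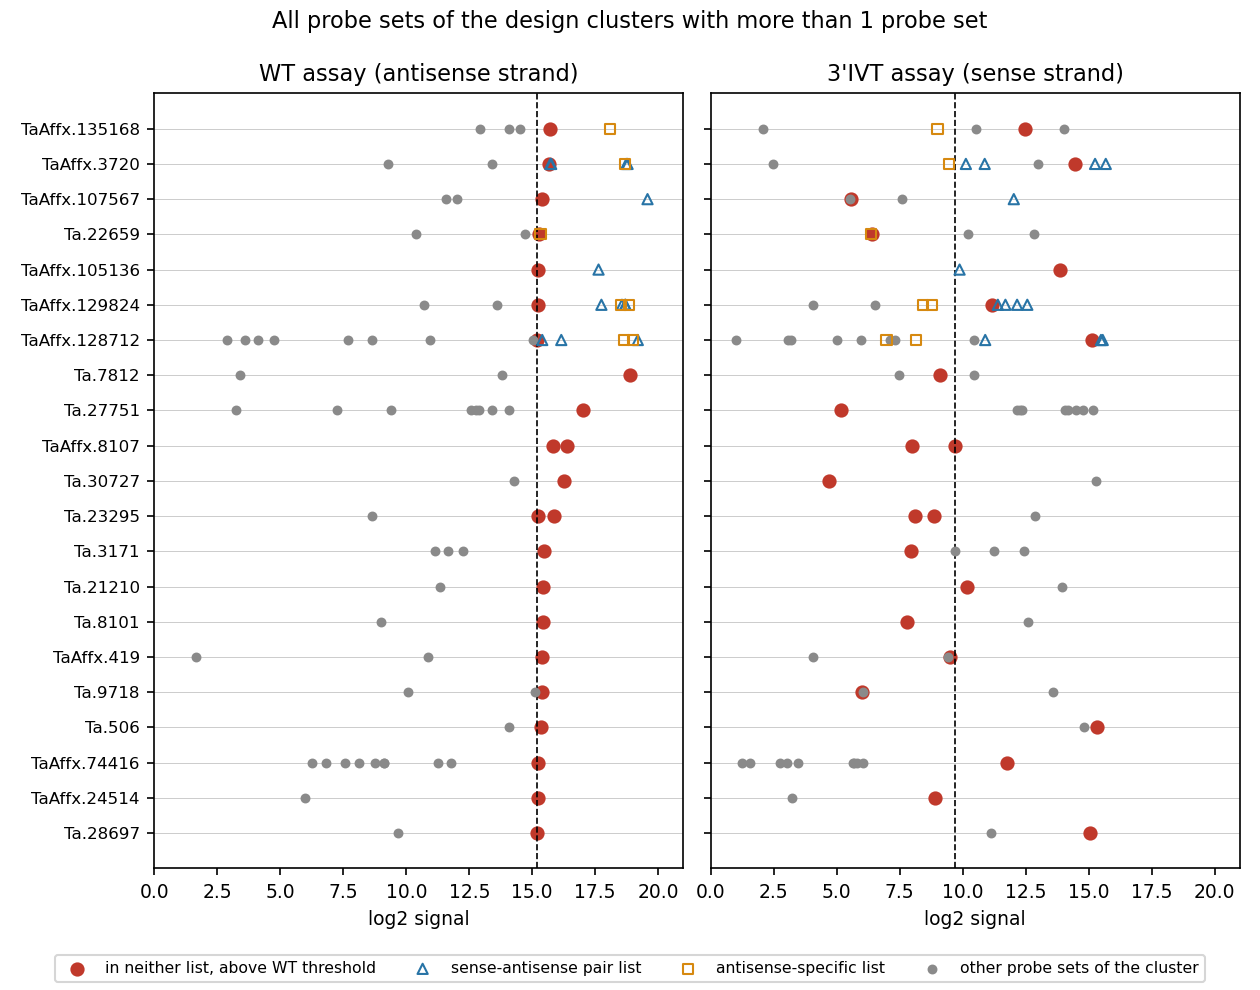
Log2 signal of every probe set in the 21 design clusters that hold an unlisted bright probe set (red) and at least 1 other, in the WT assay (left panel) and the 3'IVT assay (right panel), with the threshold of each array dashed. In the upper 7 clusters listed probe sets (triangles and squares) mostly lie to the right of the red ones on the WT array, with WT signals up to 19.58. The lower 14 hold no listed probe set. The other probe sets (grey) lie below the WT threshold in all 21 clusters, which follows from the choice of members.

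A further 16 of the 40, in 14 clusters, had other probe sets in the cluster but none listed. On the 3'IVT array, which the choice of members used only through the lists, 8 of the 16 were the lowest of their cluster and 8 were not. No share over the array was computed for this count, and in a cluster of 2 probe sets 1 is always the lowest. Among the 8, TaAffx.8107.1.S1_at was lowest only against another member. The count is therefore not read as a trait of the members. Another probe set of the cluster was above the 3'IVT threshold for 11 of the 16, and for 8 of the 12 that were above the WT threshold alone. Over all 40, 18 (45.0%, 29.3 to 61.5%) had another probe set of the cluster above the 3'IVT threshold, against 15.5% of the eligible probe sets. The 40 next below the WT threshold were like them with 47.5% (31.5 to 63.9%), as were listed antisense-specific transcripts with 42.1%, and listed pairs had 73.6%. This share rests in part on how many clusters have a second probe set. Among the 23 that have one it was 78.3% (56.3 to 92.5%), against 19 of 20 of those next below the threshold, 92.9% of listed pairs, 69.6% of antisense-specific transcripts and 39.1% of the eligible probe sets.

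The brightest of all 40 was Ta.7812.2.A1_at, with 18.89 in the WT assay, rank 41 of the wheat probe sets, and 9.10 in the 3'IVT assay. The probe set of the same design sequence with the _x_at suffix had 13.81 and 7.46. The pair thus differed by 5.08 log2 units on the WT array and by 1.64 on the 3'IVT array. Among 6186 such pairs on the array the median difference was 1.31 in the WT assay and 0.93 in the 3'IVT assay, and 223 pairs (3.60%) differed by more than this one in the WT assay. Among the 33 pairs with at least 1 probe set above the WT threshold, this one included, the median was 1.72. The upper quartile, 5.08, was the difference of this pair itself, so it was not among the rarest of the bright pairs. Those 33 were chosen for a bright partner, which by itself can widen WT differences. The third probe set, Ta.7812.1.A1_s_at, had 3.38 and 10.45 and was above the 3'IVT threshold alone.

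Ta.27751.4.A1_x_at and Ta.30727.1.A1_at were bright in the WT assay and below the array median in the 3'IVT assay, in clusters whose other probe sets were bright in the 3'IVT assay. Ta.27751.4.A1_x_at had 17.03 and 5.16, and the 8 other probe sets of its cluster 3.24 to 14.09 in the WT assay and 12.16 to 15.16 in the 3'IVT assay. On the 3'IVT array Ta.27751.4.A1_x_at was thus below all 8 others. That it was the brightest on the WT array follows from the choice of members, as its cluster holds no listed probe set and no other member. Ta.30727.1.A1_at had 16.26 and 4.70, whereas the S-letter probe set of the same sequence had 14.26 and 15.30. A probe set of opposite letter is designed to read the other strand of its sequence.

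In 5 further clusters another probe set was above the 3'IVT threshold and brighter there than the member. Ta.23295.3.S1_at and Ta.23295.2.S1_at, both members, had 15.85 and 15.24 in the WT assay and 8.12 and 8.88 in the 3'IVT assay, and Ta.23295.1.S1_at had 8.65 and 12.86. Ta.3171.2.A1_at had 15.45 and 7.95, with Ta.3171.1.S1_at at 11.14 and 12.43. Ta.8101.2.S1_at had 15.42 and 7.81, with Ta.8101.1.A1_at at 9.00 and 12.58. In each case the 2 kinds of signal belong to different sequences of a cluster, so they do not show both strands of 1 sequence. Ta.9718.2.S1_x_at had 15.37 and 6.01, with Ta.9718.1.S1_at at 10.07 and 13.59. Its partner without the suffix, Ta.9718.2.S1_at, had 15.12 and 6.05 and fell just short of the WT threshold, a gap of 0.25 that is under the spike-in SD. Ta.21210.2.S1_a_at had 15.43 and 10.16, above both thresholds, with Ta.21210.1.S1_at at 11.34 and 13.94.

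In 3 clusters the member was above both thresholds and brighter on both arrays than every other probe set of its cluster. On the WT array this follows from the choice of members, as none of these clusters holds a listed probe set or another member. Ta.506.1.S1_a_at had 15.34 in the WT assay and 15.33 in the 3'IVT assay, the highest 3'IVT signal of the 40, and Ta.506.2.A1_at of its cluster 14.08 and 14.81. Ta.28697.3.S1_at had 15.20 and 15.07, the smallest WT excess of the 40 at 0.01, and its neighbour Ta.28697.2.S1_a_at had 9.66 and 11.13. TaAffx.74416.2.S1_at had 15.25 and 11.75, and stood apart from the 9 other probe sets of its cluster, which had 6.26 to 11.77 in the WT assay and 1.24 to 6.04 in the 3'IVT assay.

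The remaining clusters had no sense signal above the threshold. TaAffx.8107.1.S1_x_at and TaAffx.8107.1.S1_at, the only pair of members from 1 design sequence, had 16.38 and 15.82 in the WT assay and 9.68 and 8.00 in the 3'IVT assay. The first lay 0.02 below the 3'IVT threshold, so its place among those above the WT threshold alone is within the spike-in SD. TaAffx.419.1.S1_at had 15.39 and 9.50, and TaAffx.24514.2.S1_at had 15.21 and 8.89. Over all clusters of the 40, the 52 other unlisted probe sets had medians of 10.78 in the WT assay and 8.50 in the 3'IVT assay, against 8.01 and 6.63 over the array. None of the 52 was above the WT threshold, which follows from the choice of members, and 25 (48.1%) were above the 3'IVT threshold. For 11 of the 40 (27.5%, 14.6 to 43.9%) another probe set of the cluster, listed or a member, was above the WT threshold, against 15.0% (5.71 to 29.8%) of the 40 next below it, 67.9% of listed pairs, 43.4% of antisense-specific transcripts and 0.38% of the eligible probe sets. The intervals of the 40 and of those next below overlap.

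The last 17 were the only probe set of their cluster, 12 above the WT threshold alone and 5 above both. Such probe sets have no neighbour on the array to set them against. TaAffx.107470.1.S1_at had 17.52 in the WT assay and 8.91 in the 3'IVT assay, TaAffx.6823.1.S1_at 17.21 and 7.22. The next, TaAffx.85725.1.S1_at, had 16.83 and 9.77. These 3 are the brightest of the 17 on the WT array, and TaAffx.85725.1.S1_at passed the 3'IVT threshold by 0.08, less than the spike-in SD. The other 14 lay within 0.51 log2 units above the WT threshold.

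Of those 14, 10 were above the WT threshold alone. TaAffx.78150.1.S1_at, at 15.33 in the WT assay, had the lowest 3'IVT signal of the 40 with 2.46, and TaAffx.82639.1.S1_at, at 15.23, the second lowest with 4.24. These 2 stand at the dim end of the sense-strand signals, where the reporter genes had a median of 3.10. TaAffx.82121.1.S1_at had 15.69 in the WT assay and 6.63 in the 3'IVT assay, and TaAffx.22603.1.S1_at had 15.65 and 5.50. TaAffx.109264.1.S1_at had 15.55 in the WT assay and 6.00 in the 3'IVT assay, whereas TaAffx.134909.1.S1_at was at 15.28 and 6.37. These 4 also lie below the highest reporter gene on the 3'IVT array. TaAffx.129527.1.S1_at had 15.35 and 8.36, TaAffx.9330.1.S1_at 15.44 and 8.43, TaAffx.56498.1.S1_at 15.61 and 9.28, and Ta.28701.1.A1_at 15.52 and 9.59, the last within the spike-in SD of the 3'IVT threshold. The 4 above both thresholds were dim in both assays by the standard of listed pairs. Ta.22468.1.S1_at had 15.37 and 9.88, TaAffx.112043.1.S1_at 15.42 and 10.25, TaAffx.56158.1.S1_at 15.36 and 10.32, whereas TaAffx.134872.1.S1_at was at 15.24 and 10.87.

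Name features that the choice of members did not use, other than through the names left out, were set beside those of the listed probe sets. The listed groups keep the clusters that were left out by name, so the groups were not filtered alike. A suffix for probe sets shared between transcripts was carried by 6 of the 40 (15.0%, 5.71 to 29.8%), against 50.9% (41.0 to 60.8%) of the listed pairs and 27.6% (18.0 to 39.1%) of the listed antisense-specific transcripts, and 20.7% of the eligible probe sets. The interval of the 40 lies below that of the pairs and overlaps the other. At the other bioB thresholds the suffix share ranged from 20% (1 of 5) to 28.6% (2 of 7), from too few members to set against the pairs. With the names left out kept, it was 19.0% (8 of 42). The letter A was carried by 7 (17.5%, 7.34 to 32.8%), 1 of the 14 above both thresholds and 6 of the 26 above the WT threshold alone, against 11.3% (5.99 to 18.9%) of the listed pairs, 25.0% (15.8 to 36.3%) of the antisense-specific transcripts and 17.4% of the eligible probe sets. These intervals overlap. Names that begin with TaAffx made up 26 of the 40 (65.0%, 48.3 to 79.4%), against 85.8% of listed pairs, 76.3% of antisense-specific transcripts and 48.3% of the eligible probe sets. Being alone in a cluster applied to 17 of the 40 (42.5%, 27.0 to 59.1%), against 20.8% of listed pairs, 39.5% of antisense-specific transcripts and 60.5% of the eligible probe sets.

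**Figure D4:**
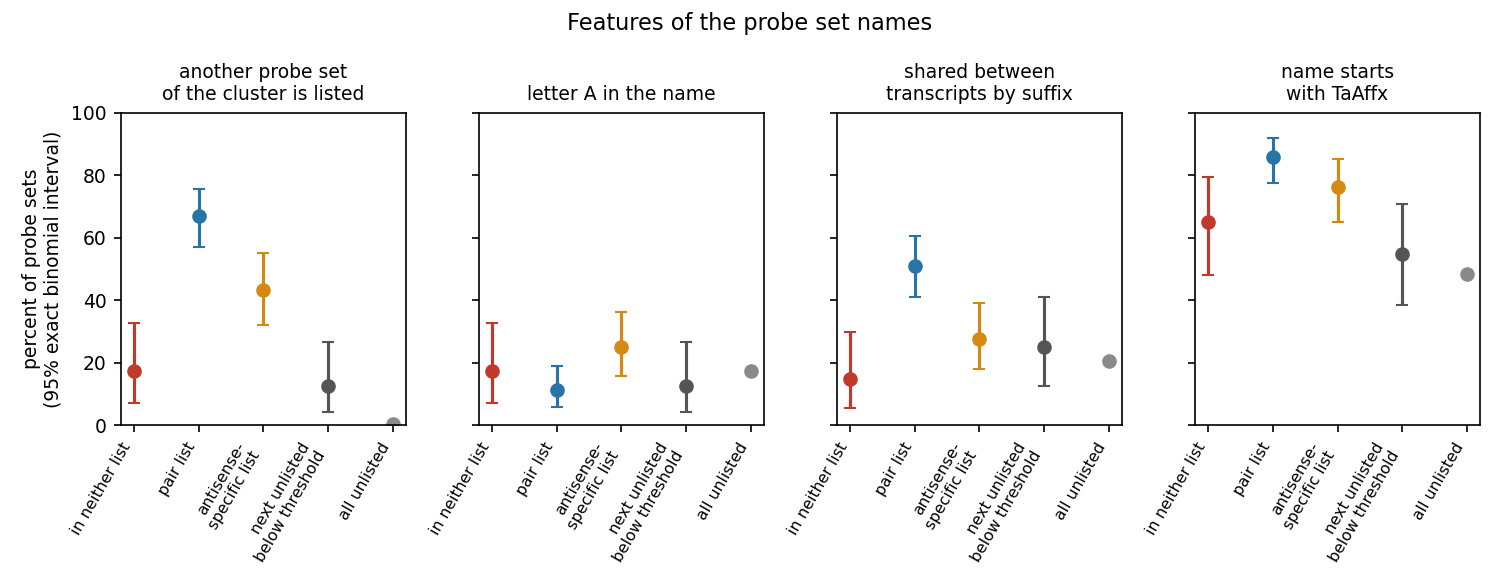
Share (%) of probe sets with each name feature among the 40 unlisted bright probe sets, the listed pairs and listed antisense-specific transcripts above the WT threshold, the 40 unlisted probe sets next below it, and all eligible unlisted probe sets, with exact 95% binomial intervals that cover counting error only and are narrower than the point for the last group. A listed probe set in the same cluster was found for 17.5% of the 40, between the 0.327% of the eligible probe sets and the 67.0% of listed pairs.

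The members were cut from a continuous range of WT signals. Just inside the threshold were TaAffx.82639.1.S1_at, TaAffx.129824.3.A1_at, TaAffx.24514.2.S1_at, TaAffx.128712.2.S1_s_at and Ta.28697.3.S1_at, with WT signals of 15.20 to 15.23. Just outside were TaAffx.6447.1.S1_x_at with 15.17 in the WT assay and 8.79 in the 3'IVT assay, Ta.9718.2.S1_at, named above, Ta.2737.2.S1_at with 15.11 and 8.42, TaAffx.120885.1.S1_s_at with 15.10 and 14.42, and TaAffx.51032.1.S1_at with 15.10 and 5.62. The steps between neighbours here are well under the spike-in SD of 0.26.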

How the data were processed

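The values deposited by the authors are linear signal intensities, 1 for each probe set on each array. The submitters' processing notes name MAS5, with its version not given in the sources used here. This method removes background and mismatch signal and then scales the array, and the 2% trimmed means were 500.2 for the WT assay and 500.3 for the 3'IVT assay. The study's lists rest on RMA values and Present calls, which were not used here, and from the lists only names and putative functions were taken. Intensities were log2 transformed without further normalization. Control probe sets (111) and reporter probe sets (64) were left out. The threshold was the lowest of 9 bioB probe sets per array. A design cluster is the name up to the second point. Probe sets that could have been members are the 60766 wheat probe sets that are neither listed nor of a name left out, the background of the shares. Every member is named, with the brightest listed probe set of its cluster, those of the same design sequence and the 5 just below the threshold. Other probe sets were named with their values known. The members and lists were chosen with earlier results of these data known. Shares have exact 95% binomial intervals. Alternatives were other bioB values, other name and suffix filters, clusters counted once, quantile normalization and a pseudocount of 16. The counting steps were tested on simulated data. Figures were drawn with matplotlib 3.10.9 and values computed in Python 3.11.15 (pandas 2.3.3, numpy 2.4.6) with intervals from scipy 1.17.1. No sequence of any probe set was used here.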

Additional observations from a re-analysis of the deposited data

How the results depend on the processing

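No paired analysis was possible because each assay has 1 array and no test was made. Precision is limited by the number of arrays. The counts depended on the threshold. With the median bioB probe set 7 members were left, 0 above both thresholds and 7 above the WT threshold alone. With the highest, these were 5, 0 and 5, and with the lowest of the r2-Ec-bioB design 9, 0 and 9. The share with a listed cluster was then 0% in each case, the share with letter A 42.9%, 40% and 33.3%, the median WT excess 0.88, 0.61 and 1.09 and the median 3'IVT excess -1.22, -1.63 and -2.01. Thresholds raised by 1 spike-in SD, chosen after seeing the data, left 17 members, 2 above both and 15 above the WT threshold alone, with a median 3'IVT excess of -1.90, and thresholds lowered by it gave 63 and 26 above both. By design sequence in place of cluster, 2.5% had a listed relative. Without members below the highest reporter gene the median 3'IVT excess was -0.017. Keeping the names left out, removing shared suffixes and counting clusters once moved no count by more than 1.5 times. With either list alone the share with a listed cluster was 12.5%. The pseudocount was applied to the medians only, and gave a median WT excess of 0.23 and a median 3'IVT excess of -0.77. Quantile normalization gave a median WT excess of 0.15, against 0.23 as reported, and a median 3'IVT excess of -0.63, against -0.79.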

Other observations

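The 2 unlisted probe sets above the WT threshold that were left out by name were Ta.27660.1.S1_x_at, with log2 signals of 15.77 in the WT assay and 15.46 in the 3'IVT assay, and TaAffx.128418.104.A1_x_at, with 15.76 and 9.51. Of the 40 unlisted probe sets next below the threshold, 5 also belong to clusters with a listed probe set, of which 3 are given here. Ta.20639.3.S1_x_at, in a cluster listed for a chlorophyll a/b binding protein of the light-harvesting antenna, had 14.83 and 13.87. TaAffx.109850.1.A1_s_at, in a cluster listed for maturase K, the chloroplast intron splicing factor, had 14.77 and 13.73. TaAffx.113847.1.S1_at, whose A-letter version is listed as antisense-specific, had 14.88 and 10.85.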
